A study of Mus musculus with 6 samples.

Results

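The genes described here encode the nuclear subunits of respiratory complexes II, III, IV and V and the electron carrier cytochrome c. They were picked by symbol (Sdha to Sdhd, Uqcr genes, Cyc1, Cycs, Cox4 to Cox8 genes and Atp5 genes), which gave 51 of the 37477 gene IDs in the table. Of these, 47 encode subunits or cytochrome c: 4 of complex II, 9 of complex III, 1 cytochrome c, 18 of complex IV and 15 of complex V. The other 4 matched by symbol alone. RNA was sequenced from 3 libraries of MERKO mice, in which the gene for estrogen receptor alpha (Esr1) was knocked out in muscle only, and from 3 libraries of wild-type mice. The MERKO libraries are called KO and the wild-type libraries WT. All 6 came from tissue labelled quadriceps, a large thigh muscle, of C57BL/6 mice at 20 weeks of age. The promoter that drove the knockout, the sex of the mice and the number of animals behind each library are not given in the labels, so the spread that p-values measure here may be technical.

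The respiratory chain sits in the inner mitochondrial membrane. Complex II oxidises succinate and passes its electrons to ubiquinone, complex III passes electrons from ubiquinol to cytochrome c, and complex IV hands them to oxygen. Complexes III and IV pump protons, and complex V, the ATP synthase, uses the proton gradient to make ATP. All subunits of complex II are nuclear, whereas the other complexes join nuclear subunits with a few encoded in the mitochondrial genome. Several complex IV subunits exist as a heart and muscle form and a form first described in liver, and these forms are encoded by separate genes.

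Total counts ranged from 7809612 to 8560244 in KO and from 7388365 to 7733401 in WT libraries. Esr1 had 22, 16 and 16 counts in KO replicates 1, 2 and 3, against 50, 41 and 44 in WT. No KO value reached the lowest WT value, with a log2 difference of -1.45 ± 0.23 (SE) and an adjusted p of 0.145 in edgeR's quasi-likelihood test with Benjamini-Hochberg adjustment. Myh4, the myosin heavy chain of type IIB fibres and a main form in mouse quadriceps, took 1.39% ± 0.200 of adult myosin heavy chain counts in KO and 0.844% ± 0.315 in WT (SD, n = 3 each). Myh7, the form of slow fibres, took 59.7% ± 1.11 in KO and 60.6% ± 2.39 in WT (SD, n = 3 each). These myosin shares go against what the tissue label leads one to look for, and the tissue is called muscle labelled quadriceps for that reason. In RNA from whole muscle, fewer cells of a type and less RNA per cell cannot be told apart.

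No subunit gene passed the test, and most stood slightly higher in KO. Of the 47 subunit genes 44 passed the filter on low counts and were tested. Their log2 differences were above 0 for 40 and below 0 for 4, with a median of 0.09. Across all 13848 genes tested 49.3% had a difference above 0, and the median was -0.00. With Benjamini-Hochberg adjustment over all genes, edgeR's quasi-likelihood test called none of the 44 at 0.05, beside 0% of all genes, and the lowest adjusted p was 0.989. At an unadjusted p under 0.05 there were 5 members higher (11.4% of 44) and 0 lower, beside 1.99% of all genes higher and 2.27% lower. Every KO value exceeded every WT value for 13 members (29.5%), beside 4.96% of all genes, and below them for 0, beside 5.45%. The 95% interval of the difference lay within a 2-fold change either way for all 44, beside 12650 of all 13848 genes tested. The genes of a complex share their libraries, so that these counts do not add up independent evidence. This count of higher members was seen in earlier results from the same libraries.

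**Figure D1:**
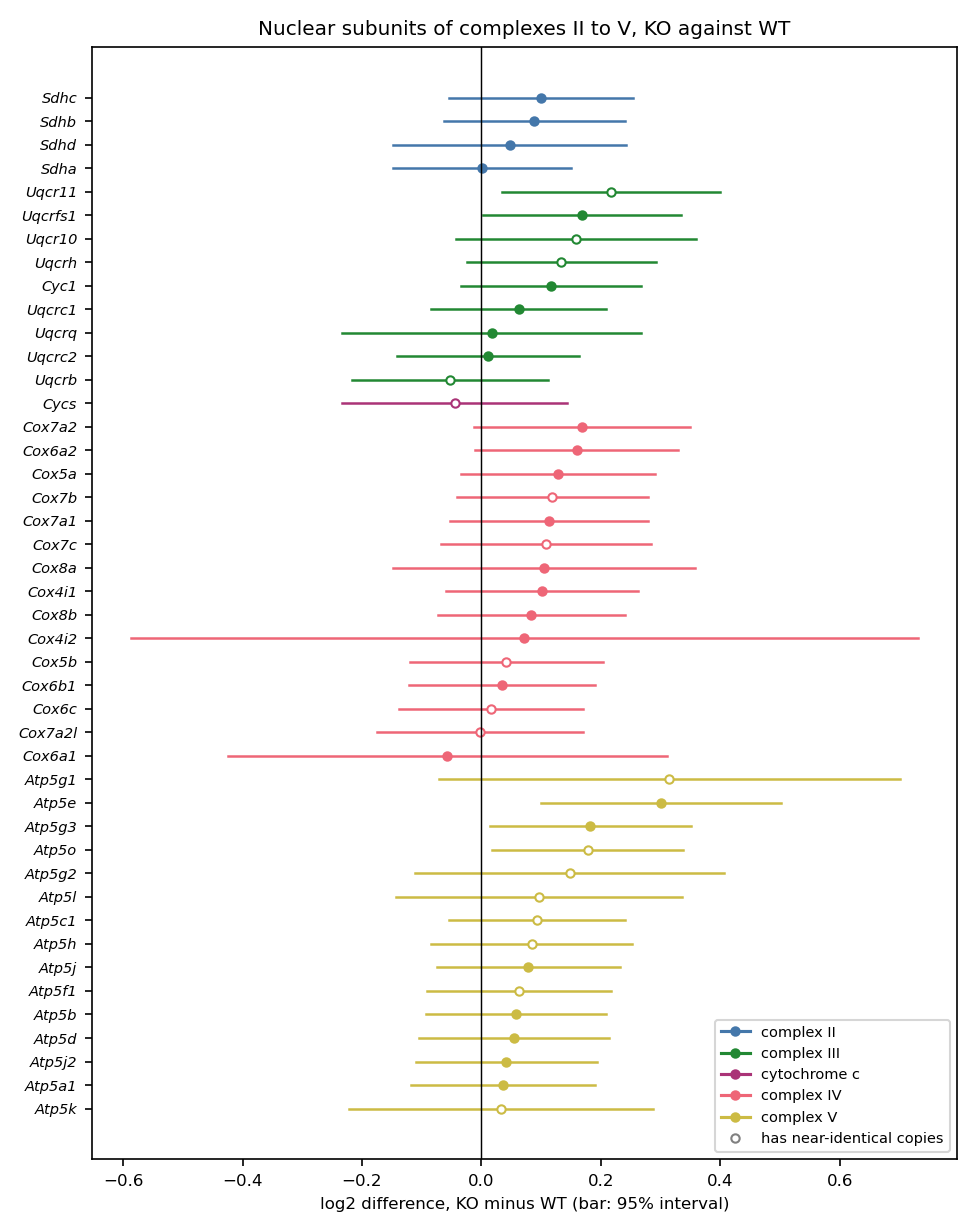
Log2 difference of KO from WT (x axis) for the 44 tested subunit genes (y axis), coloured by complex, with 95% intervals from edgeR's quasi-likelihood fit. Open points mark genes with near-identical copies. Points run from -0.06 for Cox6a1 to 0.31 for Atp5g1, and 40 of 44 lie right of 0.

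The difference was not equal in each library. The median deviation of the 44 members from the WT mean, in log2(CPM + 0.5), was 0.04, 0.11 and 0.08 in KO replicates 1, 2 and 3. It was -0.01, 0.03 and -0.01 in WT replicates 1, 2 and 3, and the SD of these library medians within groups was 0.03. CPM are counts scaled by library depth, with TMM factors. KO replicate 1 lay close to WT replicate 2, while KO replicates 2 and 3 stood further up. Without KO replicate 1 there were 12 members with an unadjusted p under 0.05 in place of 5, and without WT replicate 2 or WT replicate 3 there was 1. Leaving out WT replicate 1 or KO replicate 2 gave 3, and leaving out KO replicate 3 gave 2. Over all genes tested there were 790 of 14122 without KO replicate 1, against 590 of 13848 with all libraries. There were 579 of 14183 without WT replicate 2, 690 of 14147 without WT replicate 3 and 486 of 14199 without WT replicate 1. Without KO replicate 2 the count was 896 of 14100, and without KO replicate 3 it was 500 of 14097. Among these fits the lowest adjusted p of any member in edgeR's quasi-likelihood test was 0.215, without KO replicate 1.

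**Figure D2:**
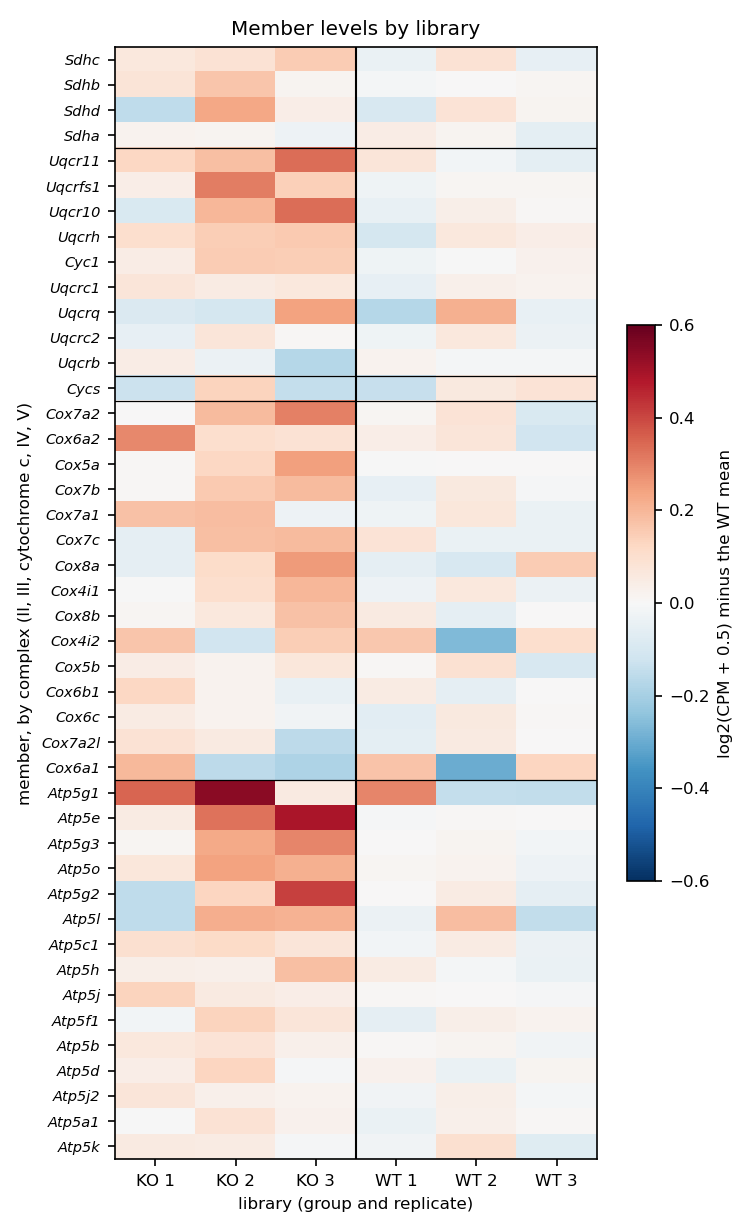
Level of each tested member in each library (columns, KO left and WT right) as log2(CPM + 0.5) minus the WT mean of that gene, with red above and blue below. The 3 KO columns hold more red than the WT columns, and the reddest cells are in KO replicates 2 and 3 at Atp5g1 and Atp5e.

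The 4 genes of complex II had the smallest median log2 difference of the complexes, 0.07. Sdha, the flavoprotein that oxidises succinate, was at 599, 596 and 577 CPM in KO and 609, 596 and 566 CPM in WT. Sdhb, the iron-sulphur subunit that passes the electrons on, was at 535, 569 and 512 CPM in KO and 502, 507 and 511 CPM in WT. The KO values of Sdha lay within those of WT, and the KO values of Sdhb lay just above them. Sdhc, which helps to anchor the complex in the membrane, was at 261, 265 and 278 CPM in KO and 243, 265 and 241 CPM in WT. Its partner anchor Sdhd was at 193, 253 and 221 CPM in KO and 201, 228 and 217 CPM in WT. Groups overlapped for Sdha, Sdhc and Sdhd. The log2 differences were 0.00 ± 0.07 for Sdha, 0.09 ± 0.07 for Sdhb, 0.10 ± 0.07 for Sdhc and 0.05 ± 0.09 for Sdhd (SE). The direction of Sdha and of Sdhd turned when single libraries were left out.

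Among the 9 complex III genes 8 were higher in KO and 1 was lower, and the median log2 difference was 0.12. Both nuclear subunits that carry electrons, Cyc1 and Uqcrfs1, had no KO value within the WT range, and both were higher. Cyc1, which encodes cytochrome c1, was at 181, 195 and 194 CPM in KO and 172, 175 and 178 CPM in WT, a log2 difference of 0.12 ± 0.07 (SE). Uqcrfs1, the Rieske iron-sulphur subunit (ENSMUSG00000038462, mm10 chr13:30540308-30545362, minus strand), was at 301, 362 and 323 CPM in KO and 287, 294 and 295 CPM in WT. The KO replicates were more spread than the WT replicates for Uqcrfs1. Its log2 difference was 0.17 ± 0.08 (SE), with an unadjusted p of 0.0476 (adjusted p 0.989) in edgeR's quasi-likelihood test. Without KO replicate 2, its highest library, the log2 difference of Uqcrfs1 was 0.09.

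The core subunits Uqcrc1 and Uqcrc2, which hold the matrix side of complex III together, stood at log2 differences of 0.06 and 0.01. The accessory subunits were less uniform, from -0.05 for Uqcrb to 0.22 for Uqcr11. Uqcr11 (ENSMUSG00000020163, mm10 chr10:80402997-80406830, minus strand) is one of the small accessory subunits. It was at 57.5, 59.8 and 66.7 CPM in KO and 55.5, 52.2 and 50.7 CPM in WT, so that the groups did not overlap. The unadjusted p of Uqcr11 was 0.0227 and its adjusted p 0.989 in edgeR's quasi-likelihood test. Uqcrh, the hinge protein that helps cytochrome c1 meet cytochrome c, was at 141, 146 and 147 CPM in KO and 123, 138 and 136 CPM in WT. Its lowest KO value lay just above its highest WT value. Uqcr10 and Uqcrq, which overlapped between groups, had log2 differences of 0.16 and 0.02.

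Cytochrome c stood slightly lower in KO, within the spread of its libraries. Cycs, the gene of the form made outside the testis, was at 316, 380 and 313 CPM in KO and 314, 360 and 366 CPM in WT. Its groups overlapped widely, and the log2 difference was -0.04 ± 0.09 (SE), which turned to 0.00 without KO replicate 3. Cycs has 4 near-identical copies in the table, and they held 41106 counts over all 6 libraries beside 16217 at Cycs itself. With these counts added, the log2 difference was -0.01 ± 0.09 (SE).

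Complex IV had 15 tested genes, of which 13 were higher in KO and 2 were lower, and the median log2 difference was 0.10. The 2 lower were Cox6a1 and Cox7a2l. Cox5a, a matrix-side subunit without tissue forms, was at 162, 175 and 191 CPM in KO and 161, 161 and 161 CPM in WT. KO replicate 1 lay less than 1 CPM above the WT values for Cox5a, and KO replicates 2 and 3 stood apart from them. Cox5b, the zinc-binding subunit, had a log2 difference of 0.04 ± 0.08 (SE). Cox7c, a small membrane subunit, was at 104, 123 and 124 CPM in KO and 115, 105 and 105 CPM in WT, which overlapped. Cox6c, another small membrane subunit, differed by 0.02. Cox7a2l, a relative of subunit 7A that has been linked to supercomplexes of complexes III and IV, was at 119, 117 and 101 CPM in KO and 108, 117 and 112 CPM in WT. Its log2 difference of -0.00 ± 0.08 (SE) turned sign under RLE, upper-quartile and total-count scaling.

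In the 3 complex IV subunits with a heart and muscle form and a liver form, the muscle form held most of the counts in both genotypes. Subunit 6A came almost wholly from the muscle gene Cox6a2, with 97.3% ± 0.206 of the Cox6a counts in KO and 96.8% ± 0.683 in WT (SD, n = 3 each). For subunit 8, Cox8b held 95.2%, 94.8% and 94.7% of the counts in KO and 95.4%, 95.2% and 94.5% in WT, and Cox8a held the rest. Subunit 7A was more evenly divided. Cox7a1 held 63.6%, 60.8% and 55.3% of the Cox7a1 and Cox7a2 counts in KO replicates 1, 2 and 3, and 60.3%, 60.6% and 61.7% in WT. KO replicate 1 was the highest and KO replicate 3 the lowest of the 6. No difference in these shares was detected: groups overlapped, and exact two-sided permutation tests gave p from 0.4 for Cox6a2 to 0.9 for Cox7a1 and Cox8b, with an adjusted p of 1.0 over the 8 shares compared. With 3 against 3 libraries that test cannot go below 0.1, so it could not have passed 0.05.

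The muscle forms themselves were slightly higher in KO. Cox6a2 was at 351, 308 and 305 CPM in KO and 295, 302 and 265 CPM in WT, with a log2 difference of 0.16 ± 0.08 (SE). Its groups did not overlap, though KO replicate 3 and WT replicate 2 lay close together. The log2 difference of Cox6a2 was 0.09 without KO replicate 1 and 0.10 without WT replicate 3. Exons of Itgad overlap 10.3% of the exonic bases of Cox6a2, and the library kit did not mark strand. Cox7a1 was at 214, 215 and 186 CPM in KO and 186, 198 and 184 CPM in WT. Cox8b was at 362, 376 and 406 CPM in KO and 374, 347 and 360 CPM in WT. Groups overlapped for Cox7a1 and Cox8b. Summed over the 3 muscle forms, the level was 908 ± 16.7 CPM in KO and 837 ± 24.3 CPM in WT (SD, n = 3 each), and all KO sums lay above all WT sums.

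The liver forms overlapped between groups. Cox7a2 was at 122, 139 and 150 CPM in KO and 123, 129 and 114 CPM in WT, a log2 difference of 0.17 ± 0.09 (SE). Cox8a had 154, 169 and 183 counts in KO and 136, 129 and 166 counts in WT. Cox6a1, at 10.8, 8.34 and 8.17 CPM in KO and 10.6, 7.52 and 10.3 CPM in WT, had the lowest log2 difference of all members, -0.06 ± 0.17 (SE). Cox6a1 turned sign without WT replicate 1, WT replicate 3, KO replicate 2 or KO replicate 3.

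**Figure D3:**
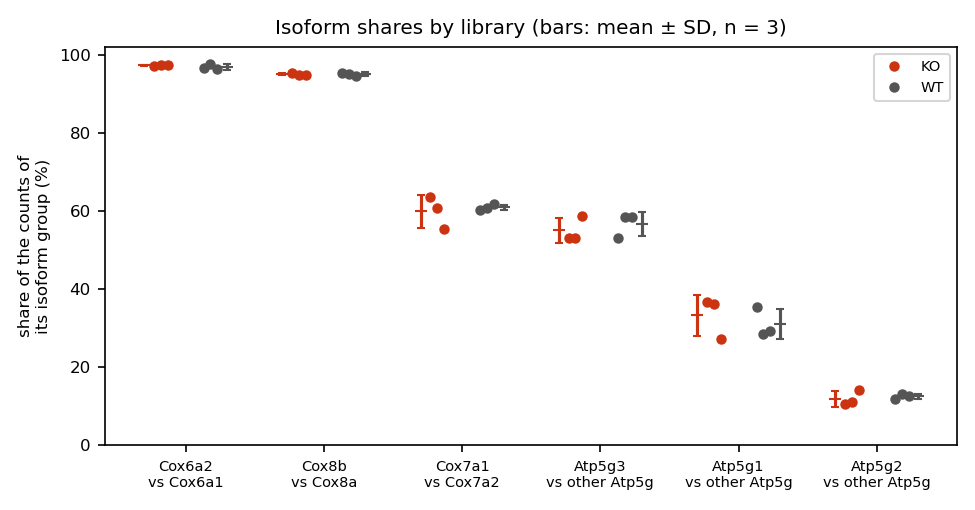
Share of the counts of an isoform group held by each named gene in each library (points, KO left in red and WT right in grey), with mean ± SD beside them. Cox6a2 and Cox8b lie above 94% in every library, Cox7a1 and Atp5g3 between 53.0% and 63.6%, and the groups overlap for every gene shown.

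The forms known from other tissues were near or at 0. Cox4i2, the form of subunit 4 known from lung, had 10 to 17 counts per library and held 0.383% ± 0.0603 of the subunit 4 counts in KO and 0.390% ± 0.0887 in WT (SD, n = 3 each). Cox6b2, the testis form of subunit 6B, had 8 counts in all. Cox7b2 and Cox8c, known from testis, had 0 counts in every library, and for Cox7b2 this allows a share of up to 0.0360% of the subunit 7B counts. That limit covers counting error only. Their widely expressed partners were close between genotypes. Cox4i1 was at 451, 484 and 518 CPM in KO and 442, 472 and 441 CPM in WT, and Cox6b1 was at 291, 272 and 259 CPM in KO and 277, 258 and 268 CPM in WT. Cox7b stood at 169, 187 and 191 CPM in KO and 162, 175 and 167 CPM in WT. Groups overlapped for these 3 genes.

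The sequence just upstream of Cox8b and Cox8a is shown because the muscle form held nearly all counts of the pair and neither window touches an annotated exon. Cox8b lies on chr7:140898945-140900446 and Cox8a on chr19:7215153-7217616, both on the minus strand of mm10. The 250 bases before each RefSeq start (GRCm38.p6) cover chr7:140900447-140900696 for Cox8b and chr19:7217617-7217866 for Cox8a, and are written 5′ to 3′ along the gene. Capitals mark CAGCTG, an E-box of the kind bound by muscle regulatory factors.
Cox8b: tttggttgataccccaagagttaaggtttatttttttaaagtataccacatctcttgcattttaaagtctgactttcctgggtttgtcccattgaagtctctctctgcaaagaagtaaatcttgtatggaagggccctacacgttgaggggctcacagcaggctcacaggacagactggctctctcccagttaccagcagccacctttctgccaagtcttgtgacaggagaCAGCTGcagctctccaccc
Cox8a: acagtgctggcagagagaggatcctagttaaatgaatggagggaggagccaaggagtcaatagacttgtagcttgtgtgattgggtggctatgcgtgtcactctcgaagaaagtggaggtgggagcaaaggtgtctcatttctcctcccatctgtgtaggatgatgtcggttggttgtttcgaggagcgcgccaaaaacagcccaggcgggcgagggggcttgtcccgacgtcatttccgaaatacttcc
Cox8b held at least 94.5% of the pair's counts in every library. The E-box letters occur in the Cox8b window and not in that of Cox8a, but they occur in 18.3% of all 27025 genes with a RefSeq promoter. The Cox8a window, searched to 50 bases past the start, has CCGGAAGT, the site of GABP, not wholly within the stretch printed. Those letters occur in 4.31% of all genes, and both matches are descriptions only.

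All 15 genes of complex V were higher in KO, with log2 differences from 0.03 for Atp5k to 0.31 for Atp5g1 and a median of 0.08. The F1 head, where ATP is made, is built from the products of Atp5a1, Atp5b, Atp5c1, Atp5d and Atp5e. The catalytic subunit gene Atp5b was at 2614, 2645 and 2555 CPM in KO and 2514, 2527 and 2465 CPM in WT, which did not overlap. Its partner Atp5a1 was at 2610, 2774 and 2659 CPM in KO and 2541, 2673 and 2627 CPM in WT, which overlapped. Atp5c1, the gene of the rotating gamma shaft, was at 420, 426 and 413 CPM in KO and 389, 407 and 384 CPM in WT. All KO values of Atp5c1 lay above those of WT.

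Atp5e, the gene of the small epsilon subunit at the foot of the shaft, had the smallest p of all members. It lies on chromosome 2 (ENSMUSG00000016252, mm10 chr2:174461072-174464105, minus strand). Its level was 168, 203 and 228 CPM in KO and 162, 163 and 162 CPM in WT. The WT libraries agreed within 2 CPM, while KO replicates 2 and 3 stood well above them and KO replicate 1 only slightly. The log2 difference was 0.30 ± 0.09 (SE), with an unadjusted p of 0.00606 (adjusted p 0.989) in edgeR's quasi-likelihood test. Without KO replicate 3 the log2 difference of Atp5e was 0.20. In the authors' deposited table the log2 fold change of Atp5e was 0.31 with a p-value of 0.0122 and an adjusted p of 1. Uqcr11 and Atp5g1 were the other members with a deposited p-value under 0.05, while Uqcrfs1, Atp5o and Atp5g3 stood above it.

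The peripheral stalk, which holds the head still, is encoded by Atp5f1, Atp5h, Atp5j and Atp5o. Atp5o, the oligomycin sensitivity protein at the top of the stalk (ENSMUSG00000022956, mm10 chr16:91925214-91931687, minus strand), was at 122, 138 and 135 CPM in KO and 117, 118 and 114 CPM in WT. Its groups did not overlap, and its unadjusted p was 0.031 and its adjusted p 0.989 in edgeR's quasi-likelihood test. Of the exonic bases of Atp5o 47.9% are shared with other genes, so that its counts are uncertain. With the counts of its copy Gm5436 added, the CPM of Atp5o overlapped between groups, and its log2 difference was 0.14 ± 0.07 (SE) with an unadjusted p of 0.0796 (adjusted p 0.989) in edgeR's quasi-likelihood test. Atp5j, at 107, 101 and 100 CPM in KO and 97.5, 97.2 and 96.7 CPM in WT, also did not overlap between groups, and 12.7% of its exonic bases are overlapped by exons of Gabpa. Summed over the stalk, the level was 689 ± 25.2 CPM in KO and 648 ± 10.3 CPM in WT (SD, n = 3 each).

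The c ring, the rotor that protons turn, is made from 1 mature protein that Atp5g1, Atp5g2 and Atp5g3 each encode with a different import sequence. Their summed level was 401, 465 and 440 CPM in KO and 399, 365 and 357 CPM in WT, so that all KO sums lay above all WT sums. The ratio of the means, 1.17, was the largest of the complex V groups set apart by role, on the genes' own counts. With counts of near-identical copies added, the log2 difference was 0.15 in place of 0.31 for Atp5g1. For Atp5g2 it was 0.09 in place of 0.15. On its own counts no single c ring gene kept its groups apart. Atp5g1 was at 146, 168 and 120 CPM in KO and 141, 104 and 104 CPM in WT, with a log2 difference of 0.31 ± 0.16 (SE). KO replicate 3 fell inside the WT range and WT replicate 1 inside the KO range. The log2 difference of Atp5g1 was 0.20 without KO replicate 2 and 0.48 without WT replicate 1. Atp5g3 was at 213, 247 and 259 CPM in KO and 211, 213 and 208 CPM in WT, with a log2 difference of 0.18 ± 0.08 (SE) and an unadjusted p of 0.0359 (adjusted p 0.989) in edgeR's quasi-likelihood test. Atp5g2 was at 41.7, 50.7 and 61.8 CPM in KO and 46.5, 48.0 and 44.6 CPM in WT.

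The shares of the 3 genes in the c ring counts overlapped between groups. Atp5g3 held 55.0% ± 3.29 in KO and 56.6% ± 3.14 in WT, Atp5g1 33.2% ± 5.25 in KO and 31.0% ± 3.82 in WT, and Atp5g2 11.8% ± 1.98 in KO and 12.4% ± 0.741 in WT (SD, n = 3 each). Exact two-sided permutation tests gave p of 1.0 for Atp5g3, 0.8 for Atp5g1 and 0.7 for Atp5g2, with an adjusted p of 1.0 for each. Atp5g1 and Atp5g2 have near-identical copies and Atp5g3 has none, so these shares depend on how reads were divided. With the counts of the copies added, Atp5g1 held the most, 49.7% ± 1.90 in KO and 49.4% ± 0.685 in WT. Atp5g3 then held 28.6% ± 1.07 in KO and 27.9% ± 0.205 in WT, and Atp5g2 21.7% ± 1.07 in KO and 22.6% ± 0.889 in WT (SD, n = 3 each). The groups overlapped for each of these shares too. The Fo accessory genes Atp5j2, Atp5k and Atp5l, whose products sit beside the ring, overlapped between groups, with a summed level of 247 ± 14.3 CPM in KO and 236 ± 16.1 CPM in WT (SD, n = 3 each).

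The 250 bases before Atp5g3, the c ring gene without near-identical copies, are shown because of its p and its window. By edgeR's quasi-likelihood test, Atp5g3 was among the 5 members that had p below 0.05 before adjustment. Of these 5, only Atp5g3 had a window that touches no annotated exon. That window was also 1 of 2 among the members with the letters TCAAGGTCA, the site of estrogen-related receptors. These orphan receptors are relatives of the estrogen receptor and are known as regulators of oxidative genes. The window is chr2:73911327-73911576 on the minus strand (RefSeq, GRCm38.p6), and capitals mark the match, which reads on the opposite strand.
Atp5g3: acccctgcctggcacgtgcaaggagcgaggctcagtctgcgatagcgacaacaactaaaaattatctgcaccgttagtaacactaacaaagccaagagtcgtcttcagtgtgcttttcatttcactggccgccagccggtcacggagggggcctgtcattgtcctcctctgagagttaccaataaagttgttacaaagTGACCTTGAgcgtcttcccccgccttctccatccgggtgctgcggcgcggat
Windows from 250 bases before to 50 bases after the RefSeq start were found for 36 of the 47 members and searched on both strands. TCAAGGTCA was in those of Atp5g3 and Sdhd, 5.56% of the 36, beside 0.466% of 27025 genes. The pair GGTCA and TGACC set 3 bases apart, the estrogen response element, was in 0 of 36, beside 0.074% of all. The shorter half-site AGGTCA, which the estrogen-related receptor letters contain, was in 25.0% of the members' windows, beside 18.1% of all.

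Letters of other factors known to act on respiratory genes were also counted. GCGCATGCG, the core of the nuclear respiratory factor 1 site, was in the windows of Atp5g2, Atp5k, Atp5l, Cox6a1, Cycs, Uqcr11 and Uqcrc1, 19.4% of 36, beside 1.95% of all. CCGGAAGT, the site of GABP (nuclear respiratory factor 2), was in 4 windows (11.1%, beside 4.31% of all), those of Atp5h, Cox8a, Uqcr11 and Uqcrh. AAGATGGC, the site of YY1, was in 3 (8.33%, beside 3.19%). CAGCTG was in 2 (5.56%, beside 18.3%), those of Atp5b and Cox8b. The member windows with the nuclear respiratory factor 1 letters were of genes that had log2 differences from -0.06 for Cox6a1 to 0.22 for Uqcr11. All of these matches are descriptions of letters in short windows.

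Summed over each complex, the nuclear genes stood a few percent higher in KO. Complex V summed to 7201, 7582 and 7340 CPM in KO and 6969, 7139 and 6962 CPM in WT. Complex IV summed to 2601, 2647 and 2685 CPM in KO and 2486, 2520 and 2424 CPM in WT. All KO sums of complexes IV and V lay above all WT sums, with ratios of the means of 1.05 for complex V and 1.07 for complex IV. Complex III summed to 2188 ± 74.0 CPM in KO and 2073 ± 52.2 CPM in WT, and complex II to 1620 ± 55.1 CPM in KO and 1562 ± 30.9 CPM in WT (SD, n = 3 each). Both overlapped between groups. Over all 47 genes the sum was 14163 ± 365 CPM in KO and 13482 ± 224 CPM in WT (SD, n = 3 each), which did not overlap.

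The subunits encoded in the mitochondrial genome showed no such separation. These are mt-Cytb of complex III, mt-Co1, mt-Co2 and mt-Co3 of complex IV, and mt-Atp6 and mt-Atp8 of complex V. Their summed level was 74802, 54649 and 45188 CPM in KO and 53562, 56619 and 57036 CPM in WT. The KO libraries lay on both sides of WT, with replicate 1 the highest and replicate 3 the lowest of the 6. All 6 genes had log2 differences above 0, from 0.00 for mt-Cytb to 0.08 for mt-Co2, and all overlapped between groups. Per count of the nuclear complex IV genes, there were 27.4, 19.7 and 16.1 counts of the mitochondrially encoded ones in KO replicates 1, 2 and 3, and 20.5, 21.4 and 22.5 in WT.

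**Figure D4:**
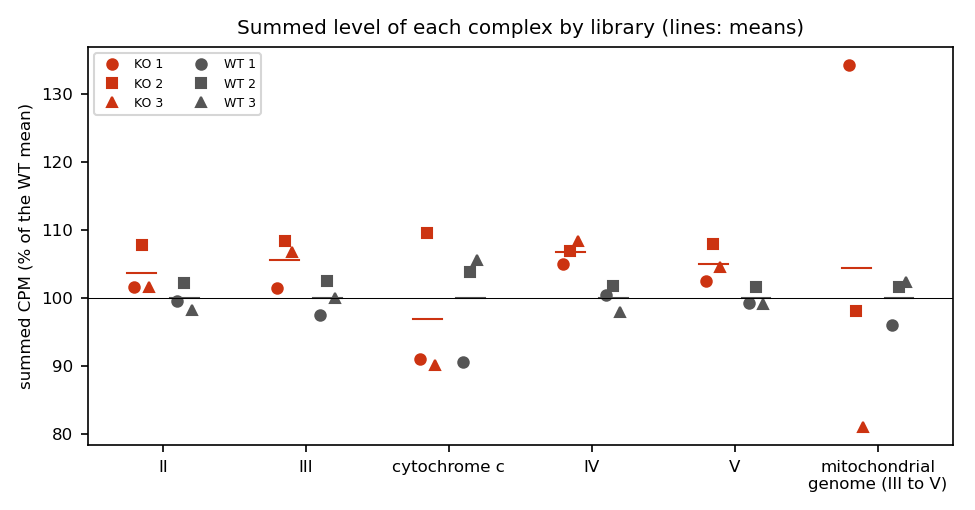
Summed CPM of each complex in each library as a percentage of the WT mean (y axis), with KO left in red and WT right in grey, marker shape for the replicate and a line at each mean. For complexes IV and V all KO points lie above all WT points. For the mitochondrial genome's subunits KO replicate 1 is the highest and KO replicate 3 the lowest point.

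The counts of many members depend on how reads shared with near-identical copies were assigned, which the sources used here do not state. Of the 47 members 18 had at least 1 copy in the table, mostly processed pseudogenes, with 95% or more sequence identity. For 12 of them the copies held more counts than the gene. Atp5k had 706 counts over all 6 libraries and its copy Gm14337 had 6727. Atp5l had 5412 counts and its 6 copies 25054, and Atp5h had 3438 counts and its 3 copies 11794. The levels of these genes are therefore lower bounds if the reads at the copies came from the gene, which was not tested.

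Adding the counts of the copies changed single genes more than the group. Atp5g1 and its copy Gm10039 together had 3333, 3599 and 3346 counts in KO and 2778, 2750 and 2931 in WT. The groups then no longer overlapped, and the log2 difference was 0.15 ± 0.07 (SE) in place of 0.31 ± 0.16. For Uqcr11 the difference with copies was 0.11 ± 0.07 (SE) in place of 0.22 ± 0.09, and for Atp5h it was -0.00 in place of 0.08. With copies summed 39 members stood above 0 and 5 below, the median being 0.08. Among the 26 tested members without copies 25 stood above 0 and 1 below, and the median was 0.08. Of these 26, 9 (34.6%) had all KO values above WT, beside 4.96% of all genes.

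**Figure D5:**
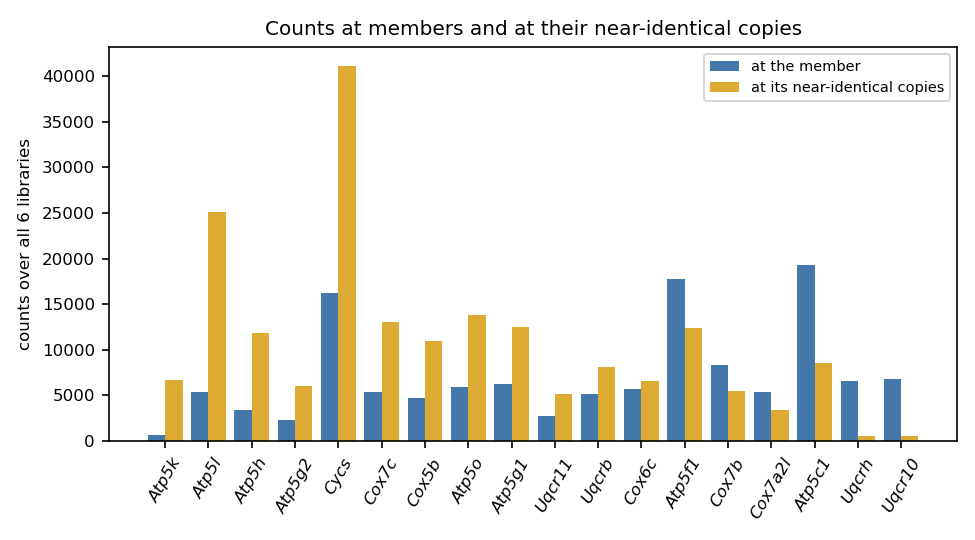
Counts over all 6 libraries at each of the 18 members with near-identical copies (blue) and at its copies together (yellow), ordered by the ratio of the second to the first. The yellow bar is the taller in 12 of 18, and Cycs has the tallest, at 41106 counts.

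Levels per length were ordered only among the members without copies. Per kilobase of annotated exons over all 6 libraries, Cox8b was the highest at 1030 CPM per kilobase, followed by Atp5a1 at 844 and Atp5b at 603. The library ranges of these 3 did not overlap. Cox6a2 at 447, Cox6b1 at 383 and Cox7a1 at 369 came next, and neighbours among these overlapped in range. The lowest of the tested were Cox8a at 31.8, Uqcrq at 25.9, Cox6a1 at 13.2 and Cox4i2 at 2.29 CPM per kilobase. The annotated exons include those of long non-coding transcripts of some genes. Per kilobase of the principal transcript (tried after the data were seen) the order at the top was Atp5b at 1333, Atp5a1 at 1071 and Cox8b at 1030 CPM per kilobase.

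Genes that act on the complexes were counted from lists set up by function. Of 40 listed assembly factors of complexes II to V, which build the complexes without being part of them, 23 were found by symbol and tested. Of these 10 were higher in KO and 13 were lower, and the median log2 difference was -0.04. At an unadjusted p under 0.05 there was 1 higher, 4.35% beside 1.99% of all genes, and 0 lower, where all genes had 2.27%. That gene was Cox17, the copper chaperone of complex IV. Cox17 was at 24.5, 24.5 and 22.3 CPM in KO and 22.4, 19.1 and 18.1 CPM in WT, which overlapped, with an unadjusted p of 0.0327 (adjusted p 0.989) in edgeR's quasi-likelihood test. Sdhaf1, an assembly factor of complex II, was at 11.7, 11.7 and 10.6 CPM in KO and 10.2, 10.3 and 8.62 CPM in WT. Acn9, another complex II assembly factor, was at 5.21, 5.32 and 5.08 CPM in KO and 7.10, 6.02 and 5.96 CPM in WT. The groups did not overlap for Sdhaf1, where KO was higher, or for Acn9, where KO was lower. Cox15, an enzyme of haem A synthesis, was also lower in KO without overlap, at 24.4, 23.8 and 24.3 CPM in KO and 25.9, 25.8 and 25.7 CPM in WT. Thus 1 of the 23 had all KO values above WT, beside 4.96% of all genes, and 2 had all KO values below, beside 5.45% of all genes.

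The transcription factors and coactivators of respiratory genes were mostly lower in KO. Of 15 tested 3 were higher in KO and 12 were lower, and the median log2 difference was -0.07. At an unadjusted p under 0.05 there was 1 lower, beside 2.27% of all genes, and 0 higher, beside 1.99%. All KO values lay below WT for 2, beside 5.45% of all genes, and above for 0, beside 4.96%. In the longest of 4 groups of all genes split by exonic length, the median log2 difference was -0.05. Of this list only Sp1, Gabpb1, Nrf1 and Gabpb2 were in that group. The median was -0.00 over all genes of 4185 to 6689 bases, where Ppargc1a and others of the list lay. It was 0.01 over all genes of 2342 to 4183 bases, where Ppargc1b, Tfb1m and Tfb2m lay. The part of length in this list was not tested. Ppargc1a, the coactivator PGC-1 alpha that drives mitochondrial genes in muscle, was at 58.9, 65.1 and 32.7 CPM in KO and 75.5, 78.8 and 77.7 CPM in WT. No KO value reached the lowest WT value, and KO replicate 3 was far below KO replicates 1 and 2. Its log2 difference was -0.56 ± 0.27 (SE), with an unadjusted p of 0.0885 (adjusted p 0.989) in edgeR's quasi-likelihood test. Its relative Ppargc1b was at 5.21, 4.95 and 5.57 CPM in KO and 8.04, 6.02 and 7.86 CPM in WT, with a log2 difference of -0.48 ± 0.19 (SE) and an unadjusted p of 0.0194 (adjusted p 0.989) in edgeR's quasi-likelihood test. The general factor Sp1 was at 37.7, 33.0 and 31.1 CPM in KO and 38.6, 35.7 and 39.6 CPM in WT, which overlapped.

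Other proteins that bind to the complexes were mostly higher, 9 of 10 tested, with a median log2 difference of 0.07. The gene 1110001J03Rik, which RefSeq names Fmc1 and which is known in yeast as an assembly factor of complex V, stood on this list under its older symbol. It was at 29.3, 27.3 and 33.7 CPM in KO and 25.2, 24.9 and 24.6 CPM in WT. Its groups did not overlap, and its unadjusted p was 0.0165 and its adjusted p 0.989 in edgeR's quasi-likelihood test. Ckmt2, the mitochondrial creatine kinase of muscle, was at 2061, 1820 and 1685 CPM in KO and 1643, 1705 and 1727 CPM in WT, which overlapped. Ndufa4, a protein once assigned to complex I and now to complex IV, was at 260, 247 and 251 CPM in KO and 239, 236 and 236 CPM in WT, which did not overlap. The genes matched by symbol alone were Atp5s, Atp5sl, the pseudogene Atp5l2 and Cox4nb, a neighbour of Cox4i1. Their log2 differences ran from -0.00 for Atp5sl to 0.19 for Cox4nb, and all 4 overlapped between groups.

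The members' difference is set beside transcript length here, and beside fibre type markers below. The tested members had a median exonic length of 1715.5 bases, against 4184 for all tested genes with a length. With all genes split by length into 4 groups of about equal size, the median log2 difference was 0.04 in the shortest, then 0.01 and -0.00, and -0.05 in the longest. Of the 44 members 31 were in the shortest group, and their median was 0.10. With offsets that remove each library's trend on length, 35 members stood above 0 and 9 below, and the median was 0.06. These offsets left 1 member at an unadjusted p below 0.05, where the main fit had 5. Over all genes such counts were 492 of 13220 with the offsets and 590 of 13848 in the main fit. The exonic lengths can exceed the principal transcript, as for Atp5l (6443 against 544 bases) and Atp5e (1756 against 421). For Cox8b both were 360 bases.

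Of 13 fast fibre markers 10 were higher and 3 lower, and their summed level was 27538 ± 207 CPM in KO and 26657 ± 645 CPM in WT (SD, n = 3 each), which did not overlap. At an unadjusted p under 0.05 there were 4 higher, 30.8% of the list beside 1.99% of all genes, and 0 lower. These were Actn3, the alpha-actinin of fast fibres, Pvalb, the calcium buffer parvalbumin, Myoz1 and Myh1, all with an adjusted p of 0.989 in edgeR's quasi-likelihood test. Actn3 was at 126, 129 and 144 CPM in KO and 69.4, 36.5 and 47.5 CPM in WT, with a log2 difference of 1.38, and Pvalb had a log2 difference of 0.87. That of Myoz1 was 0.31 and that of Myh1, a fast myosin heavy chain, 0.36. Myh2, another fast myosin, had a log2 difference of -0.15 with all KO values below WT. In all, 5 of the 13 had no overlap with KO higher, beside 4.96% of all genes, and 1 with KO lower, beside 5.45%.

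Of 10 slow fibre markers all but Tnnc1 were tested; 3 were higher and 6 lower, and their sum was 44111 ± 2102 CPM in KO and 44803 ± 4003 CPM in WT (SD, n = 3 each), which overlapped. Of the 9 tested, 1 had an unadjusted p under 0.05, and it was higher. For the other cell types, marker sums overlapped between groups, while single lists leaned to one side. The 8 endothelial markers had a median log2 difference of -0.10 (2 above 0 and 6 below), and Pecam1 had all KO values below WT. The median was 0.30 over 5 tested adipocyte markers (4 above 0 and 1 below), and Plin1 had all KO values above WT. It was -0.39 over 5 tested red blood cell markers (all below 0). The median was 0.10 over 7 tested macrophage markers (4 above 0 and 3 below), and Mrc1 had all KO values above WT. Of all genes tested, 4.96% had all KO values above WT and 5.45% had all below. The 6 fibroblast markers divided evenly about 0 with a median of 0.01, and both tested cardiomyocyte markers, Tnnt2 and Myh6, lay below 0 with a median of -0.27. The part of fibre type and of these cell types in the members' difference was not tested.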

How the data were processed

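RNA was sequenced from 3 KO and 3 WT libraries of muscle. Per the labels' protocols, RNA was taken with Trizol and libraries were made with a TruSeq kit, which does not mark strand. The submitters' processing notes name TopHat 1.3.3, edgeR and build mm10. The read counter and the handling of multi-mapped reads are not stated in the sources used here. Whole-number counts per Ensembl gene were deposited, not normalized. A log2 fold change, a log2 mean abundance, the p-value and its adjusted value, all from their own comparison, were deposited beside them.

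The table's 37506 rows held 29 repeats, which were merged; 1 symbol ending in -ps was dropped from the members. All genes were filtered (filterByExpr, 13848 kept), scaled by TMM, whose factors ran from 0.968 to 1.037, and tested two-sided with edgeR 4.0.16 (robust quasi-likelihood F-test on genotype, Benjamini-Hochberg adjustment, threshold 0.05) in R 4.3.3. Levels are CPM of the TMM-scaled libraries. The test was checked on simulated data with changes larger than that of any member, so that check does not cover differences of the members' size. Exonic lengths are unions of GENCODE M21 exons. Copies are genes or pseudogenes of that release with a match to a member's transcripts of at least 95% identity, 100 bases and 50% of the copy. Replicates differed beyond sampling noise (chi-square per gene 3.46 to 9.57) and were counted as separate. Isoform shares were compared by exact permutation tests. Libraries held 7388365 to 8560244 counts.

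Named members were the complex II genes, Cyc1, Cycs, the genes of isoform groups, Cox7a2l, the 3 others with the smallest p in each of complexes III, IV and V, and the lowest and highest difference; of other lists, up to 3 genes with the smallest p. Other members are named after their values were seen. Members and lists were chosen with earlier results of these data known. Alternatives were other scalings (RLE, upper quartile, none), other filters (no filter beyond 1 read, or 1 CPM in 3 libraries), DESeq2 1.42.0, limma voom (limma 3.58.1), a replicate block, length offsets, removal of Ttn and the mitochondrial genome, and leaving out each library. Summing copies, leaving out members with copies, edgeR's exact test and principal transcript lengths were chosen after seeing the data. RefSeq promoters were matched by gene ID or symbol.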

Additional observations from a re-analysis of the deposited data

How the results depend on the processing

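In none of the alternatives run was a member called at an adjusted p under 0.05; the lowest adjusted p of a member was 0.103, in edgeR's quasi-likelihood test without the filter on low counts. The number of members higher in KO ran from 35 to 42 of 44 or 45 tested, and was 25 of 26 when members with copies were left out. The median log2 difference ran from 0.06 (length offsets, and without KO replicate 3) to 0.10. Over the whole table edgeR's quasi-likelihood test called 0 genes, with 590 at an unadjusted p under 0.05. It called 19 without the filter on low counts, DESeq2 called 2, edgeR's exact test 4, and leaving out single libraries gave 0 to 3, the 3 being without WT replicate 1. The labels do not say whether replicate numbers pair the libraries. Deviations from group means had correlations of -0.012, 0.227 and -0.016 between same-numbered KO and WT libraries over 10005 genes. Each mean rests on 3 libraries, so that these values cannot settle the pairing. With the replicate block 40 members were higher with a median of 0.09, 0 members and 0 genes were called, and not every library correlated best with its own number.

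Of 522 checks of single named members 23 changed sign, in 9 of 29 genes, and all had adjusted p above 0.9. Cox7a2l was 0.000919 under RLE scaling, 0.00508 under upper-quartile scaling, 0.0116 on total counts, 0.00785 without the filter, 0.000945 in DESeq2 and 0.00148 without Ttn and the mitochondrial genome. With length offsets Sdha was -0.00385 and Cox6b1 -0.00502. Leaving out single libraries gave -0.199 to 0.0283 for Cox6a1, -0.0762 to 0.179 for Cox4i2, -0.0479 to 0.0706 for Cox7a2l, -0.0284 to 0.0236 for Sdha, -0.00632 to 0.0877 for Cox5b, -0.0118 to 0.0738 for Cox6b1, -0.0529 to 0.139 for Sdhd, -0.14 to 0.00483 for Cycs and -0.00441 to 0.279 for Atp5g2. Differences in isoform share, in percentage points of KO minus WT, then ran from -2.82 to 1.36 for Cox7a1, -0.329 to 0.108 for Cox8b, -0.0584 to 0.0236 for Cox4i2, -0.00343 to 0.0496 for Cox6b2 and -1.79 to 0.0432 for Atp5g2. With copies summed the Atp5g3 share differed by 0.681 in place of -1.61. The mean of log2 CPM over complex V differed by 0.114, more than the log2 of its sum. Per kilobase of the principal transcript the level was 1071 CPM for Atp5a1 and 1333 for Atp5b. The cause of these changes was not tested. Low counts limit Cox4i2, Cox6a1 and Cox6b2.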

Other observations

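Nnt, the transhydrogenase of the inner mitochondrial membrane, is known to carry a deletion in the C57BL/6J substrain. It was listed with the proteins near the complexes and is singled out after its values were seen. Its counts were 4614, 7026 and 6852 in KO replicates 1, 2 and 3, and 6518, 6167 and 2341 in WT. WT replicate 3, at 297 CPM, and KO replicate 1, at 546 CPM, stood below the other 4 libraries, which were at 843 to 873 CPM. The labels give the strain as C57BL/6 with no substrain. Whether the libraries differ in genetic background was not tested. Without WT replicate 3 36 members stood above 0 and 8 below (median log2 difference 0.08), and without KO replicate 1 37 stood above and 7 below (median 0.10).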
